A study of Mus musculus with 4 samples.

Results

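Activity-dependent immediate early genes are switched on within minutes of synaptic activity, without new protein synthesis. The 9 genes described here are Fos, Fosb, Junb, Arc, Egr1, Npas4, Nr4a1, Nr4a3 and Bdnf. They were found by gene symbol in the count matrices, where they are 9 of 32285 genes, and each had UMIs (unique molecular identifiers, 1 per captured RNA molecule) in all 4 libraries.

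The data are single-nucleus RNA sequencing (snRNA-seq) of the adult cerebral cortex of wild-type C57BL/6J mice. Risperidone, an antipsychotic that blocks dopamine D2-type and serotonin 2A receptors, was injected intraperitoneally each day at 4 mg/kg from postnatal day (PND) 22 for 21 days. Controls received saline. After a washout without drug, nuclei were taken at PND 90 from frozen right hemicortices. The mice of both conditions shared strain, genotype and age. The tissue of 5 male and 5 female mice was combined into 1 pool for each condition, and each pool was run on 2 lanes. The lanes are technical repeats, so each condition has n = 1, no test between the conditions was possible, and all intervals are exact 95% intervals that cover counting error only.

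In neurons, calcium entry through NMDA receptors and voltage-gated channels activates kinases that act on CREB, SRF and MEF2, which are already bound at these genes. The first products are mostly transcription factors, which then switch on a second set of genes. Others act at synapses directly, such as Arc, which drives AMPA receptor endocytosis, and Bdnf, a secreted ligand of the receptor TrkB. The transcripts are short-lived.

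The promoters are shown because 7 of them carry a motif that CREB can bind. Of the 9 genes, 7 matched entries in the RefSeq promoter table on GRCm38.p6, which covers 250 bases before to 50 bases after each start. The core of the cAMP response element (CRE), TGACG, or CGTCA where it lies on the other strand, is in capitals in 40-base stretches, which are read 5′ to 3′ on the strand of the gene.
Fos (chr12:85473807-85473846, + strand): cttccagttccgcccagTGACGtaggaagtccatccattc
Fosb (chr7:19310083-19310122, - strand): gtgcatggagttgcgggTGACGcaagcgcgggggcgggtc
Junb (chr8:84978832-84978871, - strand): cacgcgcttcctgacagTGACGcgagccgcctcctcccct
Npas4 (chr19:4990118-4990157, - strand): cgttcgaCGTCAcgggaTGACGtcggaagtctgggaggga
Nr4a1 (chr15:101266789-101266828, + strand): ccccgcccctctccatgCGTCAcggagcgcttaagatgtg
Nr4a3 (chr4:48045141-48045180, + strand): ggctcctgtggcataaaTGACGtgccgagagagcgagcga
Bdnf, promoter 3 of 7 (chr2:109692384-109692423, + strand): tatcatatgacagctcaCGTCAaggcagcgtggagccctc

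All 7 genes held the CRE core, which was found in 20.8% of all 32851 promoters of the table on either strand. In Bdnf, a gene with 7 listed promoters, it was in 1 of them. The full CRE, TGACGTCA, which contains the core, was in 0 of the 7 genes and in 1.79% of all promoters. The CArG box, the SRF motif, was also in 0 of the 7 genes, against 1.63% of all promoters. The AP-1 site TGANTCA, which FOS and JUN proteins bind, was found in Bdnf alone, at another of its promoters, against 7.81% of all promoters. Arc and Egr1 had no entry in the promoter table, so they were not searched, and neither were bases outside the window of the other genes. A match is a description of these letters, and binding was not measured.

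The genes differ in how much of them is intron, which matters because intronic reads were counted. On GRCm38, Fos lies at 12:85473890-85477273 and Fosb at 7:19302696-19310051. Introns make up 30.5% of the Fos span and 15.1% of that of Fosb. Junb (8:84974484-84978718) is 45.7% intronic and overlaps Prdx2 on the opposite strand. Arc (15:74669083-74672570), Egr1 (18:34859823-34864984) and Npas4 (19:4984355-4990316) are 12.4%, 13.1% and 30.6% intronic. The 3 long genes are Nr4a1 (15:101254269-101274795, 82.9% intronic), Nr4a3 (4:48045153-48086447, 85.5%) and Bdnf (2:109674700-109727007, 88.1%, with Gm45346 on the opposite strand). Levels are therefore compared between cells and lanes for 1 gene at a time, and not between genes.

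The lanes held 23450 to 29986 nuclei and 119736937 to 203675013 UMIs. Median UMIs per nucleus were 3297 and 4049 for saline against 5648 and 7765 for risperidone, so the median nucleus of the risperidone pool held more UMIs. The shallowest nucleus held 1364 and 1630 UMIs in the saline lanes but 500 in each risperidone lane. After filtering, 108493 nuclei remained. Nuclei were sorted into classes by their marker UMIs, and a class name stands for nuclei whose marker UMIs were like that class. There were 58345 glutamatergic nuclei (29804 saline, 28541 risperidone), 2910 PV-INs (parvalbumin interneurons), 2262 Sst-INs (somatostatin interneurons) and 2023 Vip-INs. In the class built on markers of near-projecting neurons, Tshz2 was high at 3252 CPM (UMIs scaled to the total UMIs of a class in a lane) but Slc17a8 and Trhr were near 0, and its nuclei are called Tshz2-high. The pools differed in composition. L2/3 IT nuclei (upper-layer intratelencephalic neurons) numbered 1863 and 2252 in the saline lanes against 3074 and 2925, and nuclei with striatal markers numbered 1135 and 1130 against 608 and 590. Fewer cells of a type and less RNA per cell cannot be told apart in a whole lane, so classes were also examined singly.

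In glutamatergic neurons the 9 genes did not move as a group. Nr4a3 was lower after risperidone, Nr4a1 was lower by less, Junb was higher, and Fosb, Npas4 and Bdnf stayed near the level of the saline pool. Fold changes are log2 of risperidone over saline, scaled with TMM factors, which set the middle of all genes near 0. A gene was past the size rule when the change was at least 0.5 in absolute size and the 2 lanes of one condition were both above, or both below, those of the other. By this rule 1 of the 9 genes, Nr4a3, was past it, against 20.5% of all 13765 genes tested in these nuclei, or 9.56% downwards and 11% upwards. Lanes of the 2 conditions lay apart for 8 of the 9 genes, and for 86.8% of all genes. The median over the 9 genes was -0.029.

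**Figure D1:**
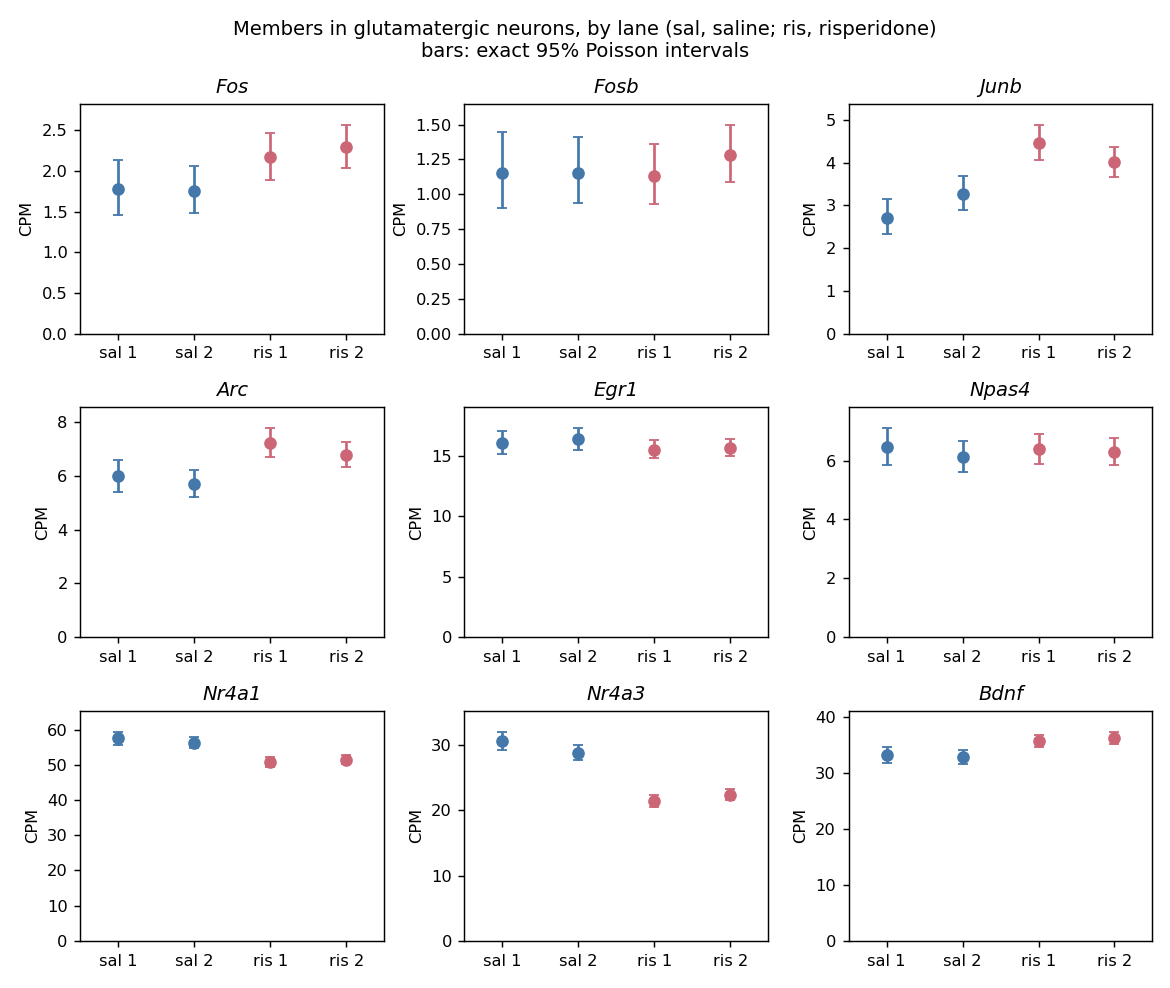
Level of each gene in glutamatergic neurons in CPM (vertical axis, starting at 0) for the 2 saline lanes (blue) and the 2 risperidone lanes (red), with exact 95% Poisson intervals. Nr4a3 fell from 28.8 to 30.6 CPM in the saline lanes to 21.4 to 22.4 CPM in the risperidone lanes, and Junb was higher in both risperidone lanes.

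Nr4a3 and Nr4a1 encode orphan nuclear receptors that act as transcription factors without a known ligand. Nr4a3 stood at 30.6 and 28.8 CPM in the saline lanes and at 21.4 and 22.4 CPM in the risperidone lanes, so the conditions did not overlap. Its log2 fold change was -0.53 (95% interval -0.589 to -0.471, from 4386 and 4965 UMIs). With plain CPM it was -0.43, short of the rule. It was also short of it without saline lane 1 (-0.5 after rounding), without risperidone lane 1 (-0.49), with a 10 CPM filter (-0.491) and in female-called nuclei. With free RNA taken out it was -0.41, but the totals used for scaling were not reduced in that alternative. Under it 19.9% of all genes were past the rule upwards and 3.3% downwards, so this value is not on the scale of the others. Nr4a1 had 57.5 and 56.3 CPM against 50.9 and 51.5 CPM, again without overlap. Its log2 fold change was -0.25 (-0.292 to -0.21), which is below the size rule. Their relative Nr4a2, which is not among the 9, had a log2 fold change of -0.067.

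Fos, Fosb and Junb encode parts of AP-1, the dimer of a FOS and a JUN protein. Junb had 2.71 and 3.27 CPM in the saline lanes and 4.46 and 4.01 CPM in the risperidone lanes, with a log2 fold change of 0.37 (0.209 to 0.538). All 4 lanes rested on few UMIs, 449 for saline and 950 for risperidone in all. Fos had 1.78 and 1.75 CPM against 2.17 and 2.29 CPM, with a log2 fold change of 0.24 (0.025 to 0.465). Fosb had 1.15 CPM in both saline lanes and 1.13 and 1.28 CPM in the risperidone lanes, which lay on both sides of the saline lanes. Its interval ran from -0.309 to 0.256.

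Egr1, a zinc finger factor, and Npas4, a neuronal factor that responds mainly to calcium, showed small changes. Egr1 had 16.1 and 16.4 CPM in the saline lanes and 15.5 and 15.7 CPM in the risperidone lanes, with a log2 fold change of -0.16 (-0.237 to -0.087). Npas4 had 6.45 and 6.12 CPM against 6.39 and 6.29 CPM, so its risperidone lanes lay between its saline lanes after plain scaling. Its log2 fold change was -0.085 (-0.205 to 0.036).

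Of the effectors, over all glutamatergic nuclei, Arc was somewhat higher and Bdnf was not clearly changed. Arc had 5.97 and 5.69 CPM in the saline lanes and 7.21 and 6.77 CPM in the risperidone lanes, with a log2 fold change of 0.16 (0.04 to 0.282). Bdnf had 33.1 and 32.8 CPM against 35.7 and 36.2 CPM. In plain CPM both risperidone lanes of Bdnf were higher, but after TMM scaling the log2 fold change was 0.024 (-0.027 to 0.076). The scaling matters for small changes, since plain CPM moved the median of all genes by 0.10. Fosb (0.073) and Npas4 (0.017) were above 0 with plain CPM.

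Over whole lanes, all nuclei together, 0 of the 9 genes were past the size rule, against 18% of 14288 genes. No test was run there, so no p-value exists for this count. Nr4a3 had 26.9 and 25.3 CPM in the saline lanes and 19.6 and 20.3 CPM in the risperidone lanes, with a log2 fold change of -0.48 (-0.528 to -0.433), just short of the limit of 0.5. Junb had 2.6 and 2.97 CPM against 4.23 and 3.94 CPM and a log2 fold change of 0.44 (0.314 to 0.57), and it passed the rule in plain CPM at 0.54.

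The lower Nr4a3 was seen in most layer types. It was past the size rule in 5 of the 8 glutamatergic types, and in L4/5 IT neurons, where 10% of all genes were past it downwards, Nr4a3 had 20.2 and 21.4 CPM in the saline lanes and 10.9 and 12.2 CPM in the risperidone lanes. The log2 fold change there was -0.92 (-1.148 to -0.69). In L6 CT (corticothalamic) neurons Nr4a3 went from 30.6 and 36.6 CPM to 20.7 and 21.2 CPM, a log2 fold change of -0.78 (-0.971 to -0.596), beside 10.7% of all genes past the rule downwards. In L2/3 IT neurons it went from 28.3 and 24.8 CPM to 17.6 and 19.1 CPM (-0.61, -0.758 to -0.461), beside 11.3% of all genes. Deep IT (-0.57) and Tshz2-high neurons (-0.525) were past the rule as well, beside 10.9% and 10.8% of all genes, but not with plain CPM (-0.466 and -0.429). In claustrum-like nuclei, where 11% of all genes were past the rule downwards, Nr4a3 had a similar log2 fold change of -0.53, but the lanes overlapped. L5 ET neurons, which project outside the telencephalon, gave 30.9 and 23 CPM against 27.3 and 29.1 CPM for Nr4a3, a log2 fold change of 0.011 (-0.29 to 0.318), beside 12.6% of all genes. In L6b nuclei, with 34 and 59 UMIs of Nr4a3, it was -0.21 (-0.842 to 0.444), beside 12.8% of all genes. The intervals of L5 ET and L4/5 IT neurons did not overlap, but with 1 pool a condition the difference between layer types was not tested.

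Among the other genes, Nr4a1 was lower with lanes apart in 7 of the 8 types, with log2 fold changes of -0.117 to -0.349, and past the rule in none of them. Lanes lay apart for 74.9% of all genes in L2/3 IT, 69.1% in L4/5 IT, 68.6% in deep IT, 58.4% in L5 ET, 69% in Tshz2-high, 68.3% in L6 CT, 46.3% in L6b and 53.3% in claustrum-like nuclei. Arc in L5 ET neurons had 1.99 and 3.11 CPM in the saline lanes and 6.62 and 5.99 CPM in the risperidone lanes. This is a log2 fold change of 1.11 (0.253 to 2.061) on 14 and 61 UMIs, beside 14.2% of all genes past the rule upwards in that type. Fos in L5 ET neurons was past it too at 0.91, on 5 and 19 UMIs and with an interval that reached below 0 (-0.558). Bdnf was past the rule in none of the 8 types. Its log2 fold change was -0.379 (-0.555 to -0.205) in Tshz2-high neurons, with lanes apart. In L4/5 IT neurons it was -0.225 (-0.406 to -0.042), with overlapping lanes. It was above 0 in L2/3 IT (0.031) and L5 ET neurons (0.144) and below 0 in the other types. The value over all glutamatergic nuclei joins types whose numbers differed between the pools, and the part of this was not tested.

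**Figure D2:**
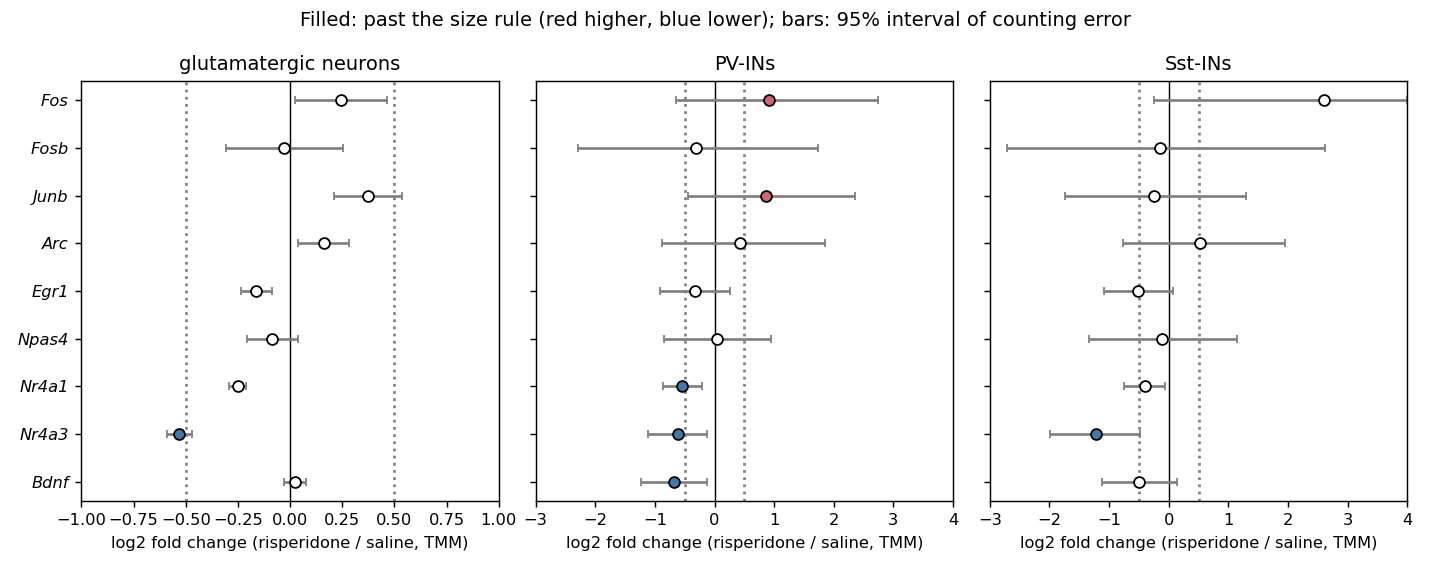
Log2 fold change of risperidone over saline (horizontal axis, TMM-scaled) for the 9 genes in glutamatergic neurons, PV-INs and Sst-INs, with 95% intervals of counting error cut at the edge of the axis and dotted lines at 0.5 in either direction. The axis of the glutamatergic panel is narrower than those of the interneuron panels, whose wide intervals follow from their few UMIs, and Nr4a3 is past the size rule in all 3 panels.

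The Nr4a3 difference was larger in nuclei called male than in those called female. Nuclei were called female where they held an Xist UMI and none of Uty, Ddx3y, Kdm5d or Eif2s3y, which are on the Y chromosome, and male in the opposite case. In male-called glutamatergic nuclei Nr4a3 had 33.2 and 31 CPM in the saline lanes and 13.4 and 12.2 CPM in the risperidone lanes. The log2 fold change was -1.41 (-1.554 to -1.269, 1081 and 646 UMIs). In female-called nuclei Nr4a3 had 30.6 and 26.2 CPM against 26.8 and 29.2 CPM, and the lanes overlapped. The log2 fold change there was -0.12 (-0.204 to -0.029, 1570 and 3264 UMIs). With plain CPM it was 0.002 (-0.085 to 0.09) in female-called and -1.33 (-1.472 to -1.187) in male-called nuclei. In the saline pool male-called nuclei were slightly above female-called ones, and in the risperidone pool they were far below.

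The difference between the sexes was 1.29 on the log2 scale. Of 8882 genes tested in both, with at least 500 UMIs in male-called nuclei, 7 including Nr4a3 differed by at least as much, and its relative Nr4a2 was another of them (0.39 in female-called and -1.085 in male-called nuclei). Nr4a1 was lower in both, with -0.2 in female-called and -0.36 in male-called nuclei. Each sex is 5 mice in 1 pool, and the calls depend on depth and on free RNA, so the difference was not tested. Between 38.4% and 53.4% of glutamatergic nuclei were called female and between 19.9% and 22.9% male.

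By layer type, in plain CPM, male-called L2/3 IT nuclei had 31.6 and 27.2 CPM of Nr4a3 in the saline lanes and 8.21 and 9.51 CPM in the risperidone lanes, a log2 fold change of -1.70 (-2.05 to -1.347). Male-called L4/5 IT nuclei had 33.3 and 27.5 CPM against 5.51 and 5.89 CPM (-2.38, -2.961 to -1.827). Male-called L6 CT nuclei had 43.6 and 54 CPM against 11.3 and 11.2 CPM (-2.14, -2.62 to -1.676). Deep IT (-1.66) and Tshz2-high nuclei (-1.45) moved the same way. In female-called nuclei the log2 fold change of Nr4a3 was 0.14 in L2/3 IT, -0.13 in L4/5 IT and -0.24 in L6 CT, and each of these intervals included 0. This split by layer type was chosen after its values were seen. In male-called L5 ET (-0.41) and claustrum-like nuclei (-0.44) the interval included 0.

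**Figure D3:**
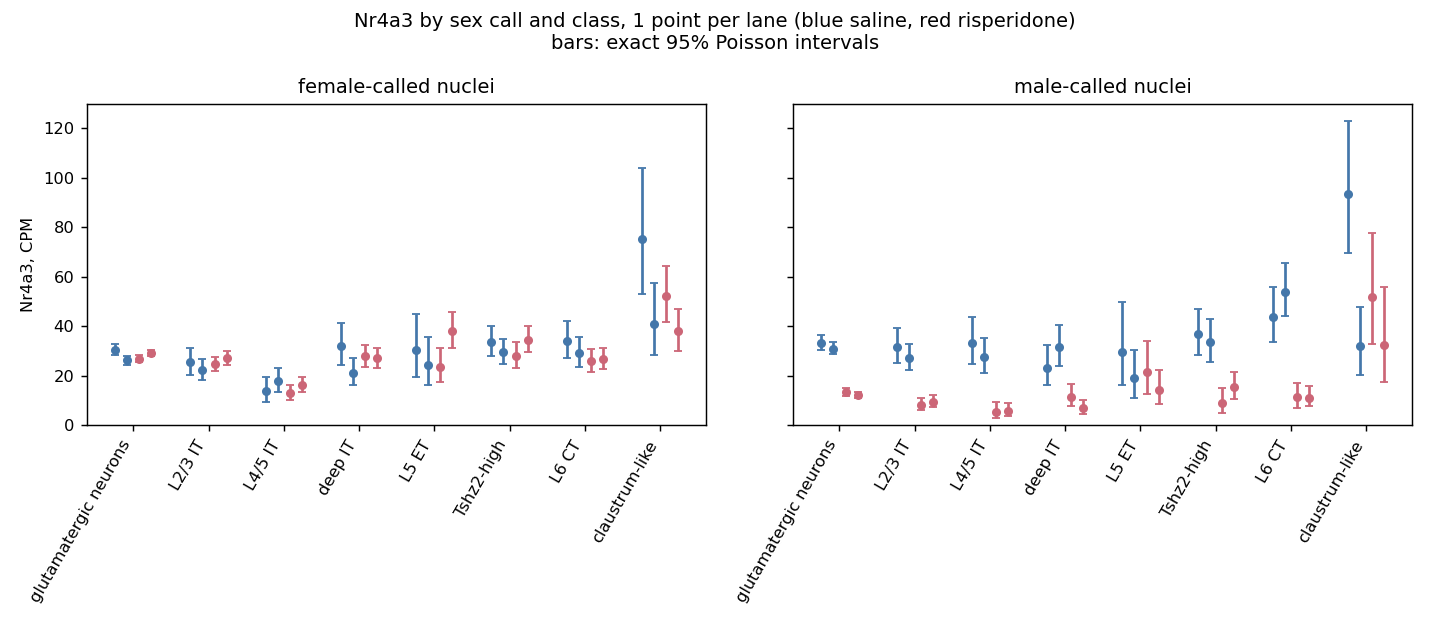
Nr4a3 in CPM (vertical axis, starting at 0) by class for female-called nuclei (left) and male-called nuclei (right), 1 point per lane with exact 95% Poisson intervals, saline in blue and risperidone in red. The male-called risperidone lanes sit far below the saline lanes in IT, Tshz2-high and L6 CT nuclei, and the female-called lanes overlap in L2/3 IT and L4/5 IT nuclei.

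The make-up of the male-called nuclei also differed between the pools. Male-called nuclei with striatal markers numbered 280 in each saline lane and 41 and 54 in the risperidone lanes, while female-called ones numbered 279 and 346 against 427 and 418. Male-called claustrum-like nuclei numbered 92 and 103 against 63 and 43, and female-called ones 98 and 141 against 228 and 238. Gnb4, used here as a claustrum marker, differed between the sexes in the same way as Nr4a3 (0.60 and -0.64). The part of tissue composition in the Nr4a3 difference was not tested.

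In PV-INs, fast-spiking inhibitory cells, and in Sst-INs, which inhibit dendrites, UMIs were few. In PV-INs 8 of the 9 genes were tested and 5 were past the size rule, 2 higher and 3 lower, against 24.4% of all 13943 genes, or 14% upwards and 10.4% downwards. Fos had 5 UMIs in the saline and 14 in the risperidone pool (log2 fold change 0.91, -0.645 to 2.736), and Junb had 7 and 19 (0.865, -0.448 to 2.358). Both intervals included 0. Nr4a3 (71 and 69 UMIs, -0.62), Nr4a1 (150 and 154 UMIs, -0.54) and Bdnf (58 and 54 UMIs, -0.68) were lower. With plain CPM, where 18.4% of all genes were past the rule upwards and 6.85% downwards, Nr4a1 had -0.427 and was not past it, and Arc, with 8 and 16 UMIs, was past it upwards (0.535). In Sst-INs 7 of the 9 genes were tested and Nr4a3 was the 1 gene past the rule, where 10.5% of all 13822 genes were past it downwards and the lanes of 56.5% lay apart. It had 7.69 and 8.26 CPM in the saline lanes and 4.16 and 3.34 CPM in the risperidone lanes, with a log2 fold change of -1.22 (-1.986 to -0.475) on 41 and 26 UMIs. Over all GABAergic interneurons Fos had 18 and 57 UMIs and a log2 fold change of 1.02 (0.238 to 1.876). Junb had 0.489 there (-0.191 to 1.203). Nr4a1 (-0.419), Bdnf (-0.394), Nr4a3 (-0.336) and Egr1 (-0.327) had intervals below 0, and those of Fosb, Arc and Npas4 included 0. Quartiles of all genes in these interneurons were -0.237 and 0.26. PV-INs made up 32.2% and 32% of them in the saline lanes against 28.7% and 28.9% in the risperidone lanes. Lamp5-INs, another interneuron class, made up 14.4% in both saline lanes against 19.9% and 19.3%. The part of this mix in the folds was not tested.

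RNA that leaks from other nuclei is captured with every nucleus. It was gauged with 12 glial markers that were not used to set classes. Their median in PV-INs was 44.2% to 59.4% of the whole-lane level, depending on the lane. Single markers ran from 0.119 to 1.26 times their whole-lane level. If every gene leaked in like proportion, PV-INs would hold at least the measured level of these 9 genes in 27 of 36 gene and lane pairs, and Sst-INs in 19 of 36. Bdnf in PV-INs had 7.36, 9.18, 5.09 and 6.1 CPM over the saline and risperidone lanes, against 15.7, 11.9, 17.5 and 14.5 CPM from free RNA by that measure. Nr4a3 was at or below that level in all 4 lanes of both PV-INs and Sst-INs. The part of free RNA in its differences there was not tested, and for Bdnf in PV-INs this measure gave more than was found, so it can be too high. In glutamatergic neurons 0 of 36 pairs were at or below it. These neurons supply most UMIs of the lanes, so their levels lie near the lane level and this count could hardly be otherwise. The median of the glial markers there was 40% and 39.2% of the whole-lane level in the saline lanes. In the risperidone lanes it was 31.7% and 32.3%. Nr4a3 in oligodendrocytes, a class outside the neurons, also had lower values, with 12.8 and 21.5 CPM for saline and 5.53 and 4.83 CPM for risperidone (40 and 13 UMIs). Its log2 fold change was -1.89 (-2.916 to -0.956) there, -0.67 (-1.401 to 0.051) in astrocytes and -0.53 (-1.638 to 0.592) in oligodendrocyte precursors. In endothelial nuclei it was -1.69 (-3.839 to 0.154) and in microglia 0.51 (-0.852 to 2.032). Median UMIs of oligodendrocytes were 2130 and 2512 in the saline lanes against 1255 and 1532 in the risperidone lanes. In astrocytes they were 2124 and 2453 against 1733 and 2324. The folds in these 2 classes therefore compare nuclei of unlike depth, and no common UMI floor was run there. In mural and fibroblast-like nuclei Nr4a3 had 5.45 and 19.1 CPM against 48.5 and 29.3 CPM (5 and 17 UMIs). This is a log2 fold change of 1.45 with an interval that included 0 (-0.045 to 3.247). In Vip-INs Nr4a3 was above the level estimated for free RNA in all lanes, with 19.6 and 19.5 CPM in the saline lanes and 25.6 and 23.2 CPM in the risperidone lanes (log2 fold change 0.19, -0.199 to 0.584), in a class where the lanes of 52.6% of all genes lay apart. With plain CPM the log2 fold change of Nr4a3 in Vip-INs was 1.14 in female-called and 0.87 in male-called nuclei and 0.305 in all Vip-INs, so nuclei with and without a sex call differed. In the 1627 Lamp5-INs it was -0.702 (-1.242 to -0.158) with TMM scaling, on 56 and 64 UMIs. Quartiles of all genes in that class were -0.287 and 0.36. The glial markers had medians of 30.7% to 42.1% of the whole-lane level there, and the part of free RNA was not tested.

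Each gene had its own distribution over the classes. As a description, 8 of the 9 genes were higher in glutamatergic neurons than in GABAergic interneurons in all 4 lanes, with Fos higher in 3. The ratio was 4.51 (95% interval 4.08 to 5.01) for Bdnf, 3.69 (2.99 to 4.62) for Arc and 1.38 (1.09 to 1.77) for Fos.

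Bdnf was highest in claustrum-like and L2/3 IT nuclei. Its mean over lanes was 79.2 CPM in claustrum-like nuclei (lanes 77.1 to 81.4) and 46.3 CPM in L2/3 IT neurons (43.3 to 48.9), and both stood apart from the class after them. L5 ET neurons followed at 36.2 CPM, and from there on neighbours in the order overlapped, with values in Tshz2-high (28.4 CPM), deep IT (26.7 CPM) and L4/5 IT neurons (25 CPM) below it. L6 CT neurons had 11.9 CPM of Bdnf. The ratio of L2/3 IT over L6 CT neurons was 3.92 (3.55 to 4.35), and that of claustrum-like over L2/3 IT nuclei was 1.68 (1.56 to 1.82).

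Arc and Egr1 had another order. Egr1 reached 25.1 CPM in L4/5 IT and 24.3 CPM in L6 CT neurons, which did not differ beyond the spread of their lanes, against 11.2 CPM in L2/3 IT neurons. Its ratio of L4/5 IT over L2/3 IT neurons was 2.22 (2.02 to 2.43). Arc had 10.7 CPM in L6 CT and 10.1 CPM in L4/5 IT neurons, with overlapping lanes, and 4.71 CPM in L2/3 IT neurons. L6 CT over L2/3 IT neurons gave a ratio of 2.15 (1.86 to 2.49) for Arc and 2.18 (1.98 to 2.4) for Egr1, each in 4 of 4 lanes. Bdnf, by contrast, was lower in L6 CT than in L2/3 IT neurons in all 4 lanes.

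The NR4A genes differed from each other. Nr4a1 was fairly even over deep and middle layers, at 63.8 CPM in L5 ET, 62.6 CPM in Tshz2-high, 60.4 CPM in L4/5 IT, 59.1 CPM in deep IT and 58.7 CPM in L6 CT neurons, with overlapping lanes. Nr4a3 was highest in claustrum-like nuclei at 49.6 CPM (34.6 to 71.5), with a ratio over L2/3 IT neurons of 2.25 (2.03 to 2.5). Among interneurons, Vip-INs had 22 CPM of Nr4a3 and Sst-INs 5.86 CPM, a ratio of 4.06 (3.09 to 5.4). Among the 8 glutamatergic types Npas4 ranged from 7.82 CPM in L6 CT to 5.46 CPM in L5 ET neurons, and each overlapped with the next in the order.

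**Figure D4:**
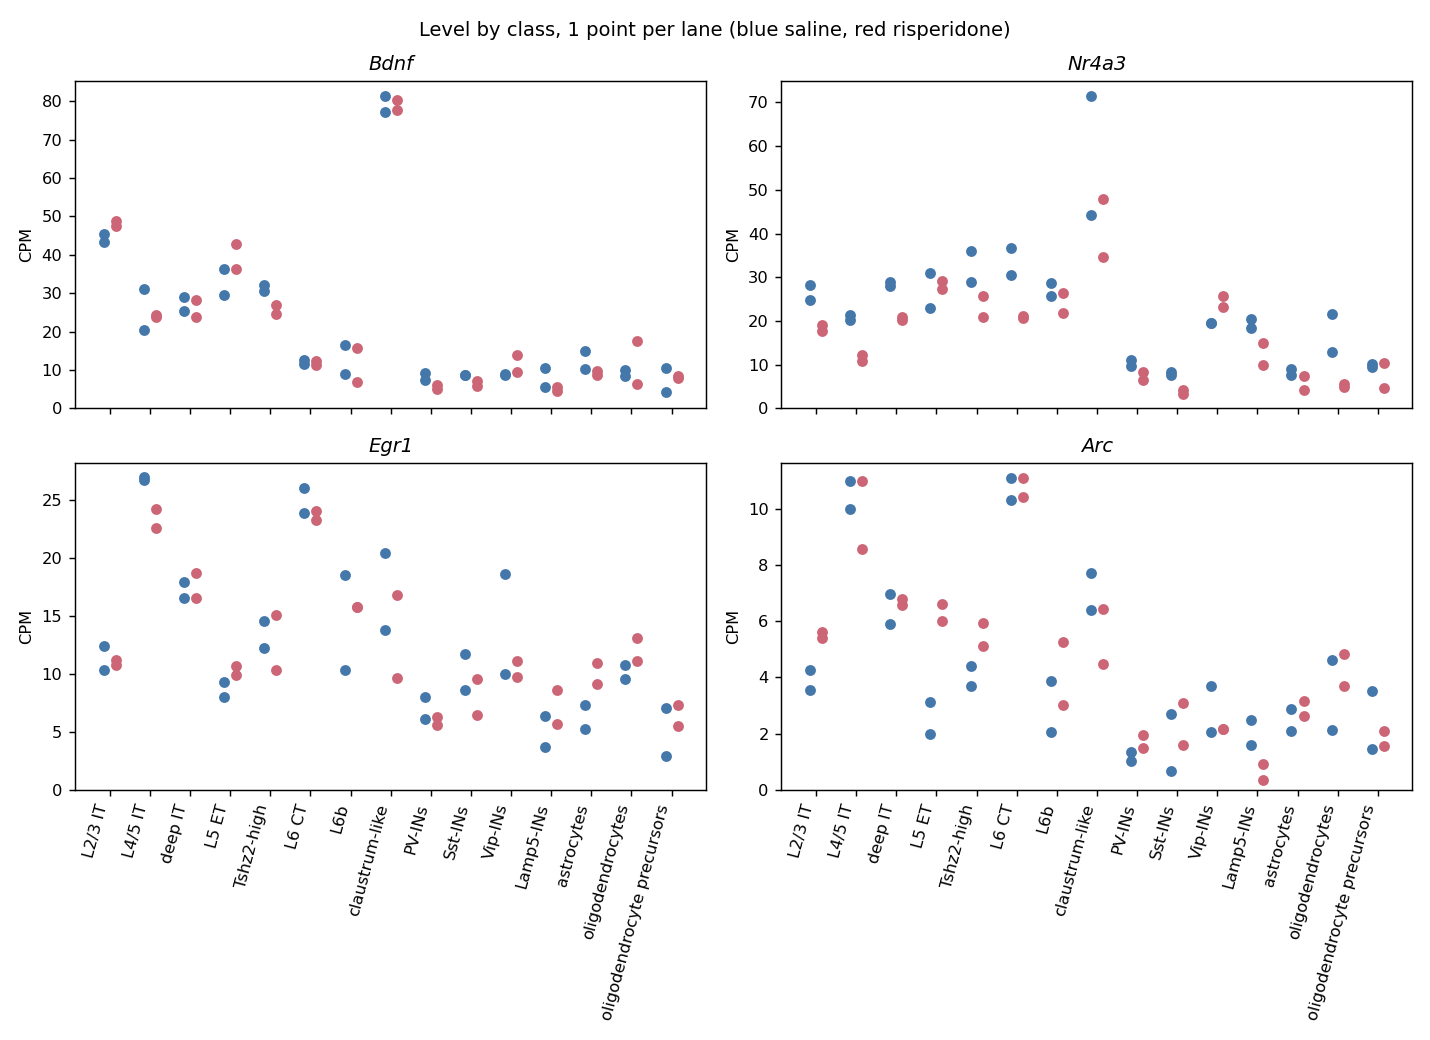
CPM (vertical axes, starting at 0) of Bdnf, Nr4a3, Egr1 and Arc in 15 classes, 1 point per lane, saline in blue and risperidone in red. Bdnf is highest in claustrum-like nuclei and second in L2/3 IT neurons, whereas Egr1 and Arc are high in L4/5 IT and L6 CT neurons.

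Outside neurons, Fos, Fosb, Junb and Egr1 were most abundant in vascular cells. Relative to glutamatergic neurons, endothelial nuclei held 5.32 times (2.74 to 9.35) the Fos level on 12 UMIs, and 5.59 times (3.53 to 8.42) that of Junb on 23 UMIs. Mural and fibroblast-like nuclei held 3.55 times (2.61 to 4.71) the Egr1 level on 48 UMIs. In these mural nuclei Egr1 had 16.4 and 28.7 CPM in the saline lanes and 70.1 and 95.2 CPM in the risperidone lanes, a log2 fold change of 1.80 (0.733 to 3.034) on 9 and 39 UMIs, beside 16.5% of all genes past the rule upwards. In endothelial nuclei Junb had 5.59 and 6.89 CPM against 31.3 and 31.9 CPM, a log2 fold change of 2.22 (0.466 to 4.614) on 3 and 20 UMIs, beside 20.6% of all genes. Both classes are small, with 468 endothelial and 499 mural nuclei. Their risperidone nuclei were shallower, unlike the lanes as a whole. Median UMIs were 1958 and 2697 for saline against 937 and 1382 for risperidone in endothelial nuclei. In mural nuclei they were 1815 and 2289 against 977 and 1184. The folds in these classes therefore compare nuclei of unlike depth, and no common UMI floor was run there. Astrocytes had 0.265 times the Nr4a1 and 0.305 times the Bdnf level of glutamatergic neurons.

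The genes whose class pattern was most like each member were found by Pearson correlation of mean log2(CPM + 1) over 19 classes, among 11614 genes. The classes share libraries and free RNA, and r is given as a description. The genes most like Bdnf were Rtn4rl2 (r = 0.94), Rtn4r (0.89) and Nwd2 (0.86). Those most like Arc were Frmd6 (0.87), Egr3 (0.85) and Homer1 (0.84), the last 2 of which are also activity-induced. Nr4a1 was most like Miat (0.95), with Ephb2 also among its closest, and Npas4 most like Nptn (0.91), followed by Pcsk2 and Vipr1. Junb was most like Btg2 (0.90), then Actr3 and Rap1b. Fos (Samd9l, Myh9, Susd6), Fosb (Apold1, Plpp6, Ecm1), Egr1 (Tacc1, Cbfa2t3, Foxp1) and Nr4a3 (Gm26652, Caln1, Mov10) had r of 0.83 to 0.93 for the first gene named. Between members r was highest for Fos and Junb (0.85).

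The share of nuclei with a UMI was compared at 1500 UMIs per nucleus, to which each nucleus was thinned at random, and shallower nuclei were left out. At that depth 3.89% (3.68 to 4.12) of 29553 saline and 2.97% (2.77 to 3.17) of 28490 risperidone glutamatergic nuclei held Nr4a3. For Junb the shares were 0.46% (0.386 to 0.544) and 0.663% (0.572 to 0.765), and for Nr4a1 8% (7.69 to 8.31) and 7.33% (7.03 to 7.64). Bdnf was in 4.34% (4.11 to 4.58) and 4.81% (4.56 to 5.06) of nuclei. Oligodendrocytes were taken as a background, but whether they lack these programs was not tested. Before the cut saline had 346 and 400 of them by lane, and risperidone had 493 and 565. After it 708 saline and 481 risperidone oligodendrocytes remained. Median UMIs before the cut were 2130 and 2512 for saline and 1255 and 1532 for risperidone. The cut removed a larger part of the risperidone oligodendrocytes, so their shares come from nuclei selected differently by pool. The oligodendrocytes that remained held Nr4a3 in 2.82% (1.73 to 4.33, 20 nuclei) and 1.25% (0.459 to 2.7, 6 nuclei). The saline interval includes the glutamatergic share of 3.89%, while the risperidone interval lies below the glutamatergic share of 2.97%. The oligodendrocyte share was lower in the risperidone pool, but its 2 intervals overlapped. Over all UMIs oligodendrocytes held 0.444 times (0.332 to 0.581) the Nr4a3 level of glutamatergic neurons, and were higher in 0 of 4 lanes. The part of free RNA in the fall of the glutamatergic share was not tested. Bdnf was in 1.41% (0.679 to 2.58) and 1.04% (0.338 to 2.41) and Nr4a1 in 3.11% (1.96 to 4.67) and 1.87% (0.859 to 3.52) of oligodendrocytes, below the glutamatergic shares of the same pool. Junb was in 0 oligodendrocytes of either pool, with intervals up to 0.52% and 0.764% that include its glutamatergic shares. At this depth, with so few nuclei, the shares of Junb in the 2 classes could not be told apart. Over all UMIs oligodendrocytes held 0.336 times (0.123 to 0.733) the Junb level of glutamatergic neurons, on 6 UMIs. In the risperidone pool Egr1 was in 2.43% of glutamatergic nuclei and in 2.7% (1.45 to 4.58) of oligodendrocytes, and Arc in 1.03% and 1.04% (0.338 to 2.41). These last oligodendrocyte shares rest on 13 and 5 nuclei, and at this depth those 2 glutamatergic shares could not be told from those of oligodendrocytes. Over all UMIs oligodendrocytes held 0.712 times (0.534 to 0.931) the Egr1 and 0.611 times (0.367 to 0.957) the Arc level of glutamatergic neurons. In the glutamatergic neurons, nuclei with no UMI of any of the 9 genes made up 81.1% (saline) and 81.9% (risperidone), and without thinning 57.2% and 46.7%.

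UMIs of these genes were found together in nuclei more often than separate occurrence would give for most pairs. At 3000 UMIs per nucleus, nuclei with both genes of a pair were counted in glutamatergic nuclei, with shallower nuclei left out. This kept 21787 of 29804 saline and 27561 of 28541 risperidone nuclei. The count was set against the number that the 2 genes would share if they occurred independently within each lane and layer type. Nuclei without a layer type, 32.7% of all glutamatergic nuclei, formed 1 mixed group per lane, and sex calls were not kept apart. This way of setting the expected number was chosen after the data had been seen. The ratio was above 1 for all 36 pairs in both pools, with a median of 1.79 in the saline and 2.13 in the risperidone pool. Its Poisson interval lay above 1 for 27 and 34 pairs. At 1500 UMIs, with fewer counts, the ratio was above 1 for 33 pairs in the saline and 36 in the risperidone pool, with medians of 1.57 and 2.4 and an interval above 1 for 16 and 23 pairs. The 3 saline exceptions were Fos with Fosb and Fosb with Junb, with 0 shared nuclei each, and Npas4 with Bdnf, with 11 nuclei and a ratio of 0.856 (0.427 to 1.53). At 3000 UMIs Fosb and Npas4 gave the highest ratio in both pools, 7.33 (3.52 to 13.5, 10 nuclei) and 8.4 (4.7 to 13.9, 15 nuclei). The lowest was that of Junb and Nr4a1 in the risperidone pool, 1.15 (0.867 to 1.49). Differences in free RNA or RNA content between nuclei were not removed, and their part in these ratios was not tested.

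**Figure D5:**
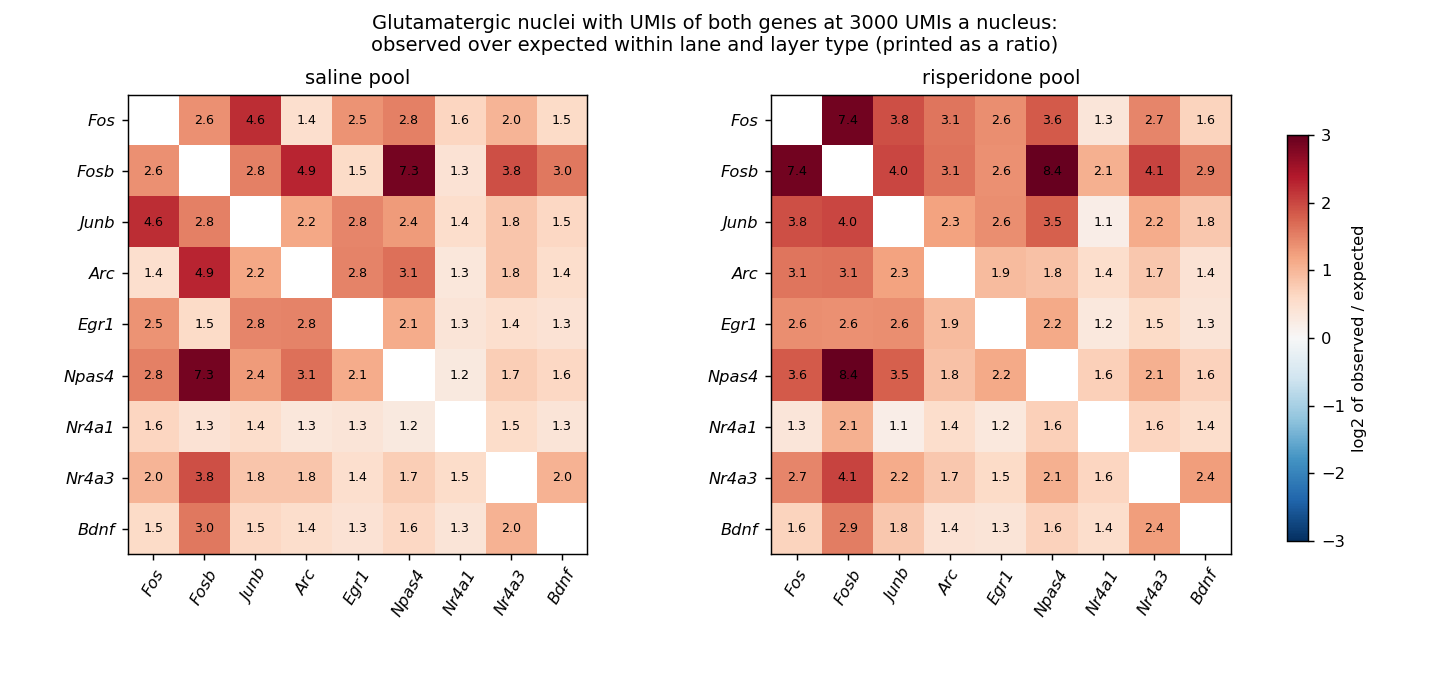
Ratio of observed to expected glutamatergic nuclei with UMIs of both genes, for each pair of the 9 genes in the saline pool (left) and the risperidone pool (right) at 3000 UMIs per nucleus, where the colour is log2 of the printed ratio. At this depth all ratios are above 1, which is not so for 3 saline pairs at 1500 UMIs, and those of Fosb with Npas4 are the highest in both pools.

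The UMIs of Nr4a3 and Bdnf were more concentrated in single nuclei than those of Nr4a1. Of the Nr4a3 UMIs of glutamatergic neurons, 12.1% (saline) and 16.4% (risperidone) lay in 76 and 114 nuclei with at least 5 UMIs, and the highest nuclei held 21 and 16. For Bdnf 85 and 229 nuclei with at least 5 UMIs held 11.6% and 19.5% of its UMIs. For Nr4a1 20 and 42 such nuclei held 1.29% and 1.99%. Depth was not matched in these counts. Of the 372 nuclei of any class with at least 5 Bdnf UMIs, 101 (27.2%) were L2/3 IT and 38 (10.2%) claustrum-like.

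Other genes of the activity program were read from lists. Of 25 other activity-induced effectors, 24 were found and 20 tested in glutamatergic neurons, of which 7 were past the size rule upwards and 0 downwards, beside 11% and 9.56% of all genes, with a list median of 0.369 against 0.0017 over all genes. Gadd45b, a DNA demethylation and stress factor, had a log2 fold change of 1.01, Inhba, a subunit of activin A, one of 0.97, and Homer1, a postsynaptic scaffold, one of 0.75. Homer1 had 302 and 309 CPM in the saline lanes and 549 and 550 CPM in the risperidone lanes. Of 21 other rapid transcription factors, 13 were tested, 3 were past the rule upwards and 1 downwards, beside the same 11% and 9.56% of all genes, with a median of 0.007. Klf10 (1.25, 753 and 2924 UMIs) and Ier5 (0.95) were higher and Fosl2, a FOS relative, was lower (-0.595).

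Among 20 upstream regulators, all tested, 0 were past the rule, against 20.5% of all genes in either direction, and the median was -0.084. Creb1, which encodes CREB, had 41.8 and 41.1 CPM in the saline lanes and 58.6 and 55.1 CPM in the risperidone lanes, with a log2 fold change of 0.35 (0.307 to 0.395). Srf had -0.043. Of 9 genes of BDNF receptors and processing, 8 were tested and 1, Sorcs2, a proneurotrophin co-receptor, was past the rule downwards (-0.69), as were 9.56% of all genes. Ntrk2, which encodes TrkB, had 1250 and 1210 CPM against 1080 and 1100 CPM (-0.27). Of 9 partners of AP-1 and NR4A proteins, 6 were tested and 3 were lower past the rule, beside 9.56% of all genes, the retinoid X receptors Rxrg (-0.88) and Rxra (-0.81) and again Fosl2. Of 10 genes of heat shock and dissociation stress, 7 were tested and 1, Rbm3, was lower past the rule (-0.52), beside the same 9.56%, with a list median of 0.199. With plain CPM, chosen for these lists after the data had been seen, 15.1% of all genes were past the rule upwards and 6.36% downwards. Fosl2 (-0.493) and Rbm3 (-0.421) were then not past it, and Nptx2, Scg2 and Sik1 among the effectors, for 10 in all, and Dnajb1 and Dnaja1 among the stress genes were past it upwards, which they had missed with values between 0.417 and 0.499.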

How the data were processed

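The authors aligned reads with Cell Ranger 8.0.1 to mm10, assigned intronic reads to genes, and deposited filtered matrices of raw UMI counts per gene and nucleus, 1 per lane. Nuclei were kept from 500 genes upwards and up to 5% of mitochondrial UMIs. Classes were set by the likelihood of UMIs of 125 marker genes, with thresholds set after marker levels had been seen. Between 18.5% and 34.1% of nuclei per lane stayed unassigned. No doublet caller was run, but nuclei with markers of several classes were left unassigned. Between 160 and 221 barcodes were shared by any 2 lanes. Counts were summed per lane and class and scaled with TMM factors (edgeR 4.0.16, R 4.3.3), and genes were read if they averaged 1 CPM or more over the lanes, and were set against the size rule. Intervals were exact (Poisson, conditional binomial for ratios, Clopper-Pearson for shares), and molecules from the same pool are not independent mice. The 3 genes of largest absolute change past the rule were named from each list, with Creb1, Srf and Ntrk2, and the 3 most alike genes for each member, of which 1 is not reported here. Nr4a2, Gnb4, the list genes past the rule under plain CPM alone, and Egr1 and Junb in vascular nuclei were named after their values were seen. The rule and intervals were tested on simulated counts. The genes and lists were chosen with earlier results of these data known. Positions are from GENCODE vM21, which holds 32235 of the 32285 gene identifiers. Alternatives were DESeq2 1.42.0 size factors, plain CPM, other filters and class rules, each lane left out, each sex, and free RNA taken out. In the last of these the totals used for scaling were left as they were.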

Additional observations from a re-analysis of the deposited data

Results flagged for a closer look

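Bdnf in glutamatergic neurons had fold changes of opposite sign by sex call. The log2 fold change was 0.077 (0 to 0.154) in female-called and -0.16 (-0.275 to -0.051) in male-called nuclei, a difference of 0.24. The difference was not tested, and 1721 of 8882 genes had one at least as large. With plain CPM the male-called interval of Bdnf included 0 (-0.194 to 0.031).

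Junb and Arc had fold changes of opposite sign in 2 glutamatergic types, with both risperidone lanes on one side of the saline lanes in each, but neither passed the size rule in either type. Junb had a log2 fold change of 0.48 in L2/3 IT and of -0.42 in claustrum-like nuclei, a difference of 0.903 that was not tested, and the claustrum-like value rests on 25 and 27 UMIs with an interval that includes 0 (-1.262 to 0.423). Arc had 0.36 and -0.44, a difference of 0.8 that was not tested, on 30 and 32 claustrum-like UMIs with an interval from -1.205 to 0.328.

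Nr4a3 was higher in both risperidone lanes in Vip-INs (0.19) and lower in both in Sst-INs (-1.22), a difference of 1.407. It was not tested, and the Sst-IN level was at or below that estimated for free RNA.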

How the results depend on the processing

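No paired analysis was possible because each condition is 1 pool, its lanes are technical runs and the result comes from no test. In glutamatergic neurons Nr4a3, Nr4a1, Junb, Fos, Arc and Egr1 kept their direction under each alternative taken alone, with Nr4a3 from -1.41 (male-called) to -0.12 (female-called). In female-called nuclei with plain CPM, both alternatives together, Nr4a3 was at 0.002 (-0.085 to 0.09). The count past the rule was 0 with plain CPM (21.5% of all genes past it), a 10 CPM filter (11.1%), female-called nuclei (23.9%), a limit of 1 (5.82%) or free RNA taken out (23.2%), and 0 to 2 with each lane left out (20.1% to 21.6%). It was 0 without saline lane 1 and without risperidone lane 1, so the call of Nr4a3 rests on those lanes. The median over the members was 0.073 (plain CPM), 0.081 (male-called) and 0.142 (free RNA taken out). Free RNA was taken out in every class without reducing the totals used for scaling. In glutamatergic neurons 19.9% of all genes were then past the rule upwards and 3.3% downwards. Counts and medians with free RNA taken out are therefore not comparable with the main ones. Over whole lanes the count was 1 with plain CPM (18.9%), with at most 1 UMI per nucleus (25.9%) and in male-called nuclei (20.9%), and 0 to 2 with each lane left out (17.5% to 19.1%), and the median was 0.005 (plain CPM) and 0.008 (male-called). In PV-INs Junb reversed in male-called nuclei to -0.565, and Arc, which was not past the rule, also went to -0.565 there. Npas4 in PV-INs did not keep its sign either (-3.239 to 0.759). The count past the rule in PV-INs was 0 with the 10 CPM filter (13.6%), male-called nuclei (28.5%), the limit of 1 (8.43%) and free RNA taken out (25.1%). In Sst-INs it was 0 with the 10 CPM filter (13.3%), 2 without a filter (24.2%), with at least 1700 UMIs (24.4%), at most 1 UMI per nucleus (26.8%), female-called nuclei (28.3%) or free RNA taken out (31.3%), 3 under the stricter class rule (24.5%) and in male-called nuclei (26.8%), and 2 to 6 with each lane left out (29.2% to 33.2%). The Sst-IN median was -0.586 in male-called nuclei and -0.467 to -0.078 with each lane left out. In other classes only plain CPM and the split by sex call were run. Depth limits Fos, Fosb and Junb outside glutamatergic neurons.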
